A study of Mus musculus with 8 samples.

Results

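The olfactomedin family was examined in the prostate of mice that lack one of its members, *Olfm4*. Members were chosen by gene symbol alone, as every probe set (a group of short array probes read as 1 value) assigned to *Olfm4*, *Olfm1*, *Olfm2*, *Olfm3*, *Olfml1*, *Olfml2a*, *Olfml2b*, *Olfml3* or *Myoc*. Of these 9 genes, 8 had a probe set in the annotation used, and together they held 12 of the 45037 probe sets tested. *Myoc*, which encodes myocilin, a secreted protein of the eye known for its part in glaucoma, had none and is not analysed here. The arrays came from whole prostate of 4 *Olfm4*-knockout (*Olfm4*-/-) and 4 wild-type (*Olfm4*+/+) mice, 1 mouse per array. The mice were 3 months old and untreated, and their mixed background was Black Swiss of the National Institutes of Health and 129/SV, at 50% each. The knockout allele is germline, so *Olfm4* was missing from every cell type of these mice. The question was whether any relative of *Olfm4* was expressed in prostate and was higher when *Olfm4* was lost.

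Olfactomedin proteins are secreted or membrane-bound glycoproteins that share a C-terminal olfactomedin domain, a propeller-shaped fold through which they bind other proteins. Most act outside the cell, in the matrix or at cell contacts, where they modulate signals such as Wnt, BMP and hedgehog ligands or hold synapses and nodes together. OLFM4 is a secreted glycoprotein of intestinal crypts, neutrophils and prostate epithelium. Its closest relatives, OLFM1 to OLFM3, are best known from brain and retina, whereas the olfactomedin-like proteins are matrix proteins of many tissues.

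The values were on the log2 scale after RMA, an array normalization that subtracts background and makes the arrays share one distribution. Array medians ran from 6.03 to 6.09. By the dates in the sample titles the arrays belong to 2 days, with 2 knockout and 2 wild-type arrays on each, so limma compared the genotypes with array day as a second term. Benjamini-Hochberg adjustment of p ran over all probe sets, and those with an adjusted p under 0.05 count as called. Under this rule 0.111% of all probe sets were called. Luminal markers of prostate epithelium, 7 measured of 9 listed, averaged 12.94 to 13.61 in knockout and 13.47 to 13.63 in wild-type arrays. Transcripts of seminal vesicle, an attached gland, stood out on the array of knockout mouse 1 and on that of wild-type mouse 1, where 5 markers averaged 13.75 and 14.15. On the other arrays the same markers averaged 8.82 to 9.81 in knockout and 7.59 to 9.50 in wild-type prostate.

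*Olfm4* itself was lost in every knockout array. Its 1 probe set, 1437060_at, read 3.09, 3.00, 3.25 and 3.09 in knockout arrays 1 to 4 and 10.32, 10.23, 10.74 and 10.65 in wild-type arrays 1 to 4. The 2 genotypes did not come near each other, and the 4 wild-type mice lay within about the same narrow range on either array day. The log2 fold change, knockout minus wild type, was -7.37 (standard error, SE, 0.13, 95% confidence interval -7.68 to -7.07, adjusted p = 1.79e-06 from limma). It was -7.31 on array day 1 and -7.44 on array day 2. An exact permutation test over arrays, 2-sided and without regard to array day, gave p = 0.0286, the smallest that 4 arrays against 4 allow. As the knockout was made by deleting this gene, its loss checks the genotype labels and is not a finding. For the other genes, a fall in a bulk sample cannot tell fewer expressing cells from less RNA per cell.

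To judge which members gave a signal, the 44 probe sets of 39 olfactory receptor genes were used as a background set, since these receptors are mostly silent outside the nose. Their mean log2 values ran from 2.53 to 5.31, with a median of 3.62 and a 95th percentile of 4.56. A gene was taken as above background when the lowest of the 4 wild-type arrays exceeded that percentile. Probe sets differ in how strongly they bind, so this sets each probe set against a common floor and does not rank the genes. *Olfm4* in knockout prostate, 3.11 ± 0.10 (SD, n = 4), was below the median of the background set. Against the 95th percentile, *Olfm4* was at least 60.7-fold lower in knockout than in wild-type prostate.

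Of the 7 measured paralogs of *Olfm4*, 4 were above background in wild-type prostate, namely *Olfm1*, *Olfml1*, *Olfml2a* and *Olfml3*. *Olfm2* and *Olfm3* lay below the threshold at all their probe sets, and *Olfml2b* lay at it.

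**Figure D1:**
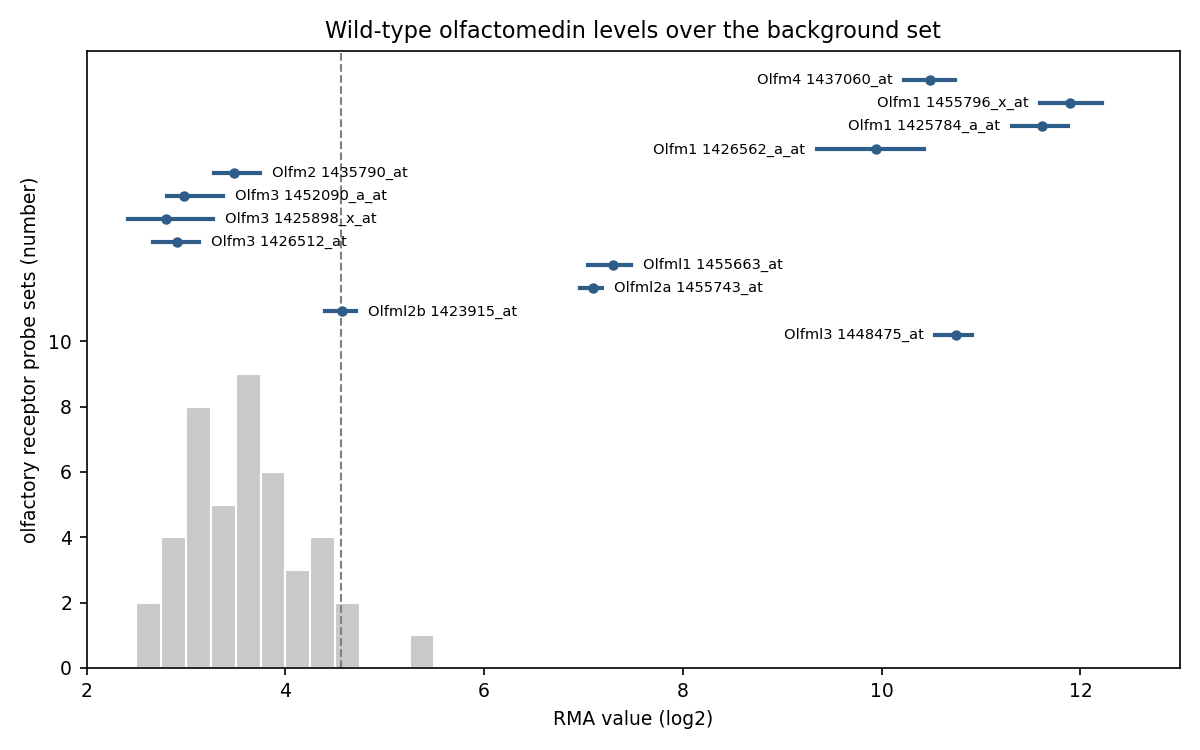
Histogram of the mean log2 RMA value of 44 olfactory receptor probe sets, the background set (x axis, RMA value on the log2 scale; y axis, number of probe sets), with the mean (point) and range (line) of the 4 wild-type arrays for each of the 12 olfactomedin probe sets drawn above it, whose height has no scale. The dashed line is the 95th percentile of the background set, 4.56; the probe sets of *Olfm4*, *Olfm1*, *Olfml1*, *Olfml2a* and *Olfml3* lie wholly to the right of it.

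No paralog was called higher in knockout prostate. None of the 11 paralog probe sets was called in either direction at an adjusted p under 0.05, where 0.06% of all probe sets were called higher and 0.0511% lower. Of the 11, 7 had a higher and 4 a lower mean, with a median log2 fold change of 0.031 against -0.014 over all probe sets. Before adjustment, 3 of the 11 were lower and 0 were higher at p under 0.05, where 7.34% of all probe sets were lower and 5.46% higher. With median centring of the arrays these 2 shares trade places, at 2363 probe sets lower and 3175 higher, but the same 3 paralog probe sets were lower. They are 1425784_a_at and 1426562_a_at of *Olfm1* and 1455663_at of *Olfml1*. Counted by gene at its brightest probe set, without that centring, 1 paralog was lower and 0 were higher at p under 0.05. Of all genes 8.49% were lower and 6.27% higher. Under other settings 2 probe sets passed as higher before adjustment. *Olfml2a* did so in 5 of 21 alternatives, namely with the replicate number as a block, with cyclic loess and without knockout array 1, knockout array 3 or wild-type array 2. Probe set 1425898_x_at of *Olfm3* did so in 1 of 19, the replicate block. Neither was called after adjustment in any of them. Not one paralog probe set had every knockout array above every wild-type array (3.69% of all probe sets did), and 1 had every knockout array below every wild-type array (5.03% did). In tests, simulated arrays were given independent noise of each probe set's spread, with no array-day effect and no shared tissue differences. There limma called 26% of probe sets changed by 0.5 on the log2 scale and 80% of those changed by 1. Smaller changes could thus pass unseen.

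**Figure D2:**
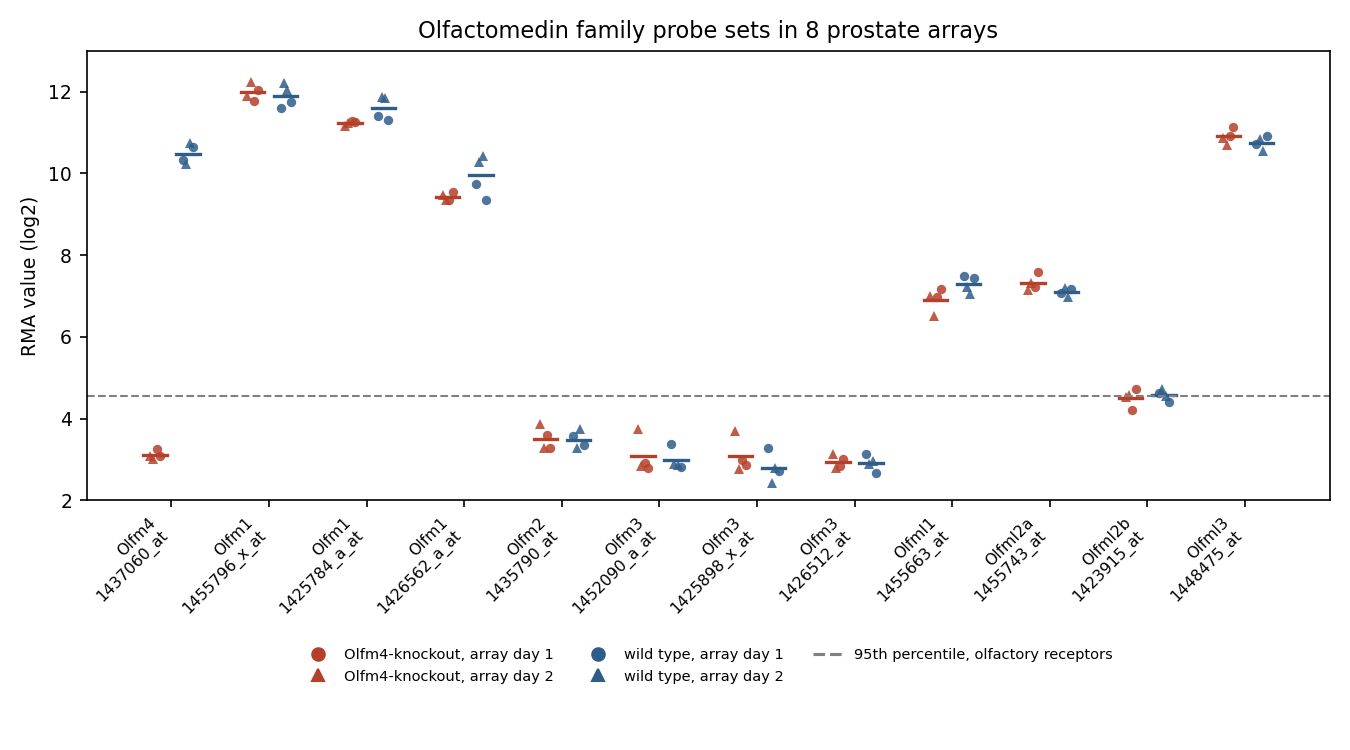
RMA value (log2, y axis) of each olfactomedin family probe set (x axis) in 4 *Olfm4*-knockout (red, left) and 4 wild-type arrays (blue, right), with circles for array day 1, triangles for array day 2 and a bar that marks each genotype's mean. Only *Olfm4* is separated by a wide gap, and the dashed line marks 4.56, the 95th percentile of the olfactory receptor background set.

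*Olfm1* encodes noelin 1, also called pancortin, a secreted glycoprotein of neurons that binds synaptic receptors and is made in several forms from alternative starts and ends of the gene. It had 3 probe sets, and they did not give the same picture. Probe set 1425784_a_at read 11.17, 11.22, 11.27 and 11.25 in knockout arrays and 11.40, 11.88, 11.85 and 11.31 in wild-type arrays. All 4 knockout arrays were below the lowest wild-type array, though by a narrow gap on array day 1. Its log2 fold change was -0.38 (standard error 0.12, unadjusted p = 0.0131, adjusted p = 0.286 from limma). The exact permutation test, which left array day out, gave p = 0.0286.

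Probe set 1426562_a_at of *Olfm1* read 9.47, 9.35, 9.35 and 9.54 in knockout arrays and 9.75, 10.27, 10.43 and 9.35 in wild-type arrays. The groups overlapped, since wild-type array 4 was the lowest of all and the other wild-type arrays were the highest. The log2 fold change was -0.52 (SE 0.18, unadjusted p = 0.0242, adjusted p = 0.322 from limma), with p = 0.143 in the exact permutation test. The brightest probe set of *Olfm1*, 1455796_x_at, read 11.90, 12.24, 11.78 and 12.03 in knockout arrays and 11.60, 12.21, 12.04 and 11.74 in wild-type arrays. Its groups overlapped over most of their range, with a log2 fold change of 0.09 (SE 0.12, adjusted p = 0.794 from limma). In the array's naming, the suffix x marks probes that can also match other transcripts and the suffix a marks probes shared by transcripts of 1 gene.

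The lower *Olfm1* values in knockout prostate came mostly from array day 2. At 1425784_a_at the difference was -0.10 on array day 1 and -0.67 on array day 2, and at 1426562_a_at it was -0.10 and -0.94. The knockout means were alike on both days, 11.26 and 11.19 at 1425784_a_at, whereas the wild-type means there were 11.36 on array day 1 and 11.86 on array day 2. The difference between days was tested as a genotype-by-day interaction in limma. It had unadjusted p = 0.00268 at 1425784_a_at and 0.00848 at 1426562_a_at, where 4.9% of all probe sets had an unadjusted p under 0.05. Adjusted, it was 0.89 at both, where 0.00222% of all probe sets were called. The 5 measured nerve and Schwann cell markers all averaged lower in knockout than in wild-type arrays. Their median log2 fold change was -0.26, with none at an unadjusted p under 0.05. Their mean level was 6.16 to 8.05 in knockout and 6.28 to 8.18 in wild-type arrays. It was highest on wild-type array 1, knockout array 1 and wild-type array 3, at 8.18, 8.05 and 7.76. These arrays read 11.40, 11.17 and 11.85 at 1425784_a_at. Wild-type array 2, with 6.44 for the markers, read 11.88 there. Which part these markers, the day or the mouse play in the *Olfm1* values was not tested.

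**Figure D3:**
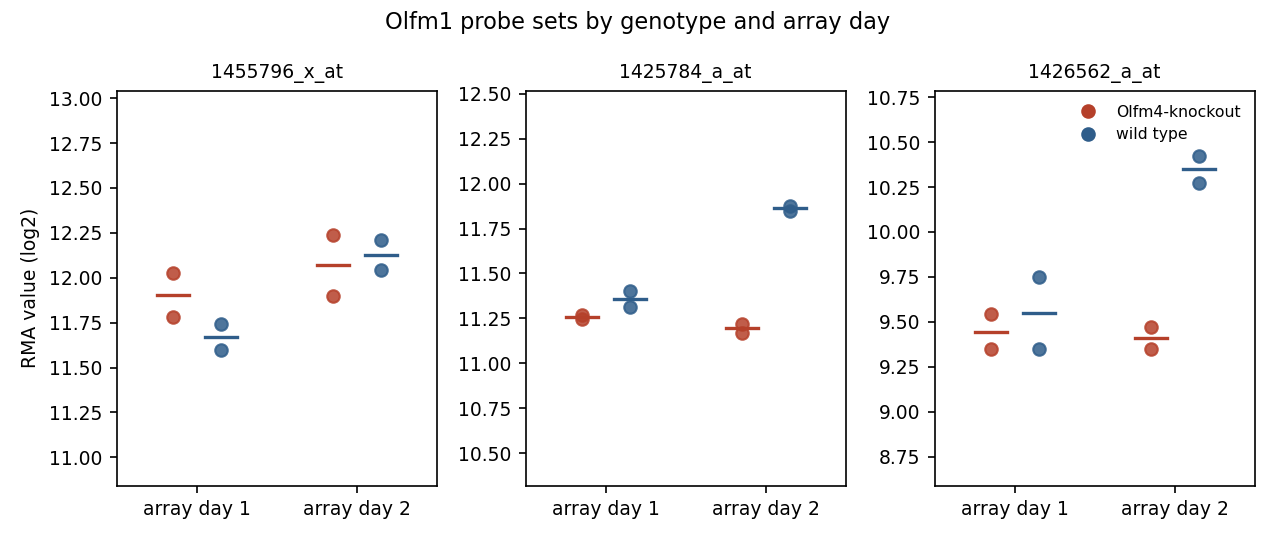
RMA value (log2, y axis) of the 3 *Olfm1* probe sets by array day (x axis), with a point per array for *Olfm4*-knockout (red, left) and wild type (blue, right) and a bar that marks the mean of each pair. At 1425784_a_at and 1426562_a_at the wild-type arrays of array day 2 stand above all others, and at 1455796_x_at the genotypes overlap.

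Because the *Olfm1* probe sets differed and *Olfm1* has alternative starts, its 2 promoters in RefSeq (build GRCm38.p6) are shown beside that of *Olfm4*, the transcript that was lost, each from 250 bases before to 50 bases after a start site. Capitals mark TGGGAA on either strand, the core of the site bound by RBPJ, the transcription factor of Notch signaling, a known regulator of *Olfm4* in intestine.
Olfm4, chr14:80000052-80000351, plus strand: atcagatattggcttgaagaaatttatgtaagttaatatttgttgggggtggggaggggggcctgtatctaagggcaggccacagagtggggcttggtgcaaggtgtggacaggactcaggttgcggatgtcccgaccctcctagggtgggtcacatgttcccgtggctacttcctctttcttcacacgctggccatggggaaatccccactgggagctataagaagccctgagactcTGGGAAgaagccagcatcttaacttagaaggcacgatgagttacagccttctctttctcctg
Olfm1, upstream start, chr2:28192843-28193142, plus strand: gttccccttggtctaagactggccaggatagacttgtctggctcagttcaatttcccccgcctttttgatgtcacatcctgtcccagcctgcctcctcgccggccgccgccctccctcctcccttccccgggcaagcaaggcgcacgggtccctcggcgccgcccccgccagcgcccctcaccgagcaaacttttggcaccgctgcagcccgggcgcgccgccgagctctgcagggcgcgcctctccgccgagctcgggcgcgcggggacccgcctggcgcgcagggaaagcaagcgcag
Olfm1, downstream start, chr2:28205439-28205738, plus strand: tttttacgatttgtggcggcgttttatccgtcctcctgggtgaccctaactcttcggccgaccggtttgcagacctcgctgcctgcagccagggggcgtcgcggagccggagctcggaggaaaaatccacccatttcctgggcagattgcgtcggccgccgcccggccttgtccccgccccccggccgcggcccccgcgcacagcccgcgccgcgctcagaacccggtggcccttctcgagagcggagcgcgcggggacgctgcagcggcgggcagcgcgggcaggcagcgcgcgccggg
Olfml3, chr3:103737952-103738251, minus strand: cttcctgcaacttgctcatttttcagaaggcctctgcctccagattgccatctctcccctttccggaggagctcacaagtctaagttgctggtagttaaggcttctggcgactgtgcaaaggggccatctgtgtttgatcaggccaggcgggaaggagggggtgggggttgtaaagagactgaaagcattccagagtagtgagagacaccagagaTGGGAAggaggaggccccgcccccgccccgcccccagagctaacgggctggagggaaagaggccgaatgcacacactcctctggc
The *Olfm4* promoter holds TGGGAA on the sense strand, beginning at position -12 from the start site, and that of *Olfml3*, shown as the other member above background with these letters, begins it at -35. On the other strand the letters stand in a promoter of *Olfm3* and in that of *Olfml2b*. They occur in 25.6% of the 32851 promoters of the same length, so a match is common. The search also covered TATAAA, found in 13.6% of promoters, and TGTTCT, the androgen receptor half-site, found in 19.0%, on both strands. Neither was in any of these 4 windows. The *Olfm1* promoters hold 32 and 43 CpG dinucleotides, against 5 in that of *Olfm4*, 8 in that of *Olfml3* and a median of 7 over all promoters. Which start the probe sets of *Olfm1* read was not tested.

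*Olfm2* and *Olfm3*, the other close relatives, encode noelin 2 and noelin 3 (optimedin), secreted proteins of brain and eye. They stayed within the background range in both genotypes. The *Olfm2* probe set 1435790_at read 3.28 to 3.88 in knockout and 3.28 to 3.74 in wild-type arrays, with a log2 fold change of 0.02 (95% confidence interval -0.36 to 0.41). The 3 probe sets of *Olfm3* read 2.76 to 3.75 in knockout and 2.42 to 3.37 in wild-type arrays. Their log2 fold changes were 0.29 at 1425898_x_at, 0.09 at 1452090_a_at and 0.03 at 1426512_at (adjusted p from 0.682 to 0.943 in limma). The upper bound of 0.88 at 1425898_x_at, a fold change of 1.84, was the highest of all paralog probe sets, at a probe set with no signal above background.

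At 1452090_a_at, 1425898_x_at and 1426512_at of *Olfm3*, the highest array of either genotype was that rich in seminal vesicle transcripts. Knockout array 1 read 3.75, 3.71 and 3.12, and wild-type array 1 read 3.37, 3.27 and 3.13. At 1426512_at the next arrays were close, at 3.01 in knockout and 2.96 in wild type. Neuronal and Schwann cell markers were also high on the 2 arrays rich in seminal vesicle transcripts. Their mean over 5 measured genes was 8.05 on knockout array 1 and 6.16 to 6.48 on the other knockout arrays, and it was 8.18 on wild-type array 1, 7.76 on wild-type array 3 and 6.28 to 6.44 on the other wild-type arrays. Their part in the *Olfm3* values was not tested, and all these *Olfm3* values stayed below 4.56.

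*Olfml1* encodes a secreted olfactomedin-like protein. Its probe set 1455663_at read 7.01, 6.50, 6.97 and 7.17 in knockout arrays and 7.48, 7.23, 7.04 and 7.45 in wild-type arrays. Knockout array 2 was the lowest of all, and only the highest knockout array and the lowest wild-type array overlapped. The log2 fold change was -0.39 (standard error 0.12, unadjusted p = 0.0123, adjusted p = 0.283 from limma; exact permutation test, p = 0.0571). It was the same size on both days, -0.39 on array day 1 and -0.38 on array day 2. A higher *Olfml1* level lay outside the interval, which ran from -0.66 to -0.11.

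*Olfml2a* and *Olfml2b* encode photomedins, matrix proteins that in mouse bind chondroitin sulfate. *Olfml2a* at 1455743_at read 7.14, 7.33, 7.22 and 7.58 in knockout arrays and 7.07, 7.19, 6.97 and 7.16 in wild-type arrays. The knockout arrays were higher on average, but 1 of them, array 1, lay within the wild-type range. The log2 fold change was 0.22 (standard error 0.10, unadjusted p = 0.0694, adjusted p = 0.439 from limma; exact permutation test, p = 0.0857). It was 0.28 on array day 1 and 0.16 on array day 2. Among the paralogs above background this was the highest mean difference, and its interval reached 0.46, a fold change of 1.38. Without knockout array 4 it was 0.14. *Olfml2b* at 1423915_at read 4.22 to 4.72 in knockout and 4.40 to 4.71 in wild-type arrays, on either side of the background threshold, with a log2 fold change of -0.06 (adjusted p = 0.874 from limma).

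*Olfml3* encodes a secreted protein that binds BMP4 and is known from blood vessels and stroma. At 1448475_at it read 10.88, 10.70, 10.93 and 11.13 in knockout arrays and 10.73, 10.83, 10.54 and 10.91 in wild-type arrays. The groups overlapped, with a log2 fold change of 0.15 (SE 0.10, adjusted p = 0.563 from limma; exact permutation test, p = 0.257). A fold change above 1.31 lay outside its 95% confidence interval. The difference was 0.10 without knockout array 4 and 0.06 without the 2 arrays rich in seminal vesicle transcripts. All 6 fibroblast markers had a higher mean in knockout prostate, with a median log2 fold change of 0.24, none of them called. This was not particular to fibroblasts. A higher mean was also seen at 4 of 4 basal, 5 of 5 seminal vesicle, 5 of 6 smooth muscle and 4 of 5 endothelial markers. It was seen at 2 of 7 luminal, 1 of 5 leukocyte and 0 of 5 nerve and Schwann cell markers. The mean level of the fibroblast markers was 10.14 to 10.62 in knockout and 10.03 to 10.30 in wild-type arrays. The part of these cell types in the values of *Olfml3* and *Olfml2a* was not tested.

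Other genes that carry an olfactomedin domain are *Adgrl1*, *Adgrl2* and *Adgrl3*, which encode latrophilins, adhesion receptors of the cell surface, and *Gldn*, which encodes gliomedin of nerve nodes. *Gldn* had no probe set in the annotation used. Of the 11 probe sets of the latrophilins, 0 were called at an adjusted p under 0.05, and at an unadjusted p under 0.05, 1 was higher and 2 were lower, where 5.46% of all probe sets were higher and 7.34% lower. Both lower ones were those of *Adgrl1*, and they gave like differences. *Adgrl1* at 1452812_at read 6.94, 6.73, 6.83 and 6.72 in knockout arrays and 7.10, 7.26, 7.11 and 7.23 in wild-type arrays. At 1428510_at it averaged 10.44 ± 0.09 in knockout and 10.79 ± 0.14 in wild-type arrays (SD, n = 4 each). At both probe sets all 4 knockout arrays were below the lowest wild-type array, as at 5.03% of all probe sets. The log2 fold change was -0.37 at 1452812_at (standard error 0.08, adjusted p = 0.197 from limma). It was -0.35 at 1428510_at, with a standard error of 0.09 and an adjusted p of 0.246. The higher one was 1428523_at of *Adgrl3*, with 4.46 ± 0.18 in knockout and 4.24 ± 0.11 in wild-type arrays (SD, n = 4 each), below the background threshold on average in both. Of the 6 probe sets of *Adgrl3*, 4 had a lower mean in knockout prostate, the most so 1447551_x_at. It averaged 5.85 ± 0.44 in knockout and 6.32 ± 0.23 in wild-type arrays (SD, n = 4 each), with a log2 fold change of -0.47 (SE 0.23, adjusted p = 0.452 from limma). The probe sets of *Adgrl2* had log2 fold changes between -0.11 and -0.04.

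**Figure D4:**
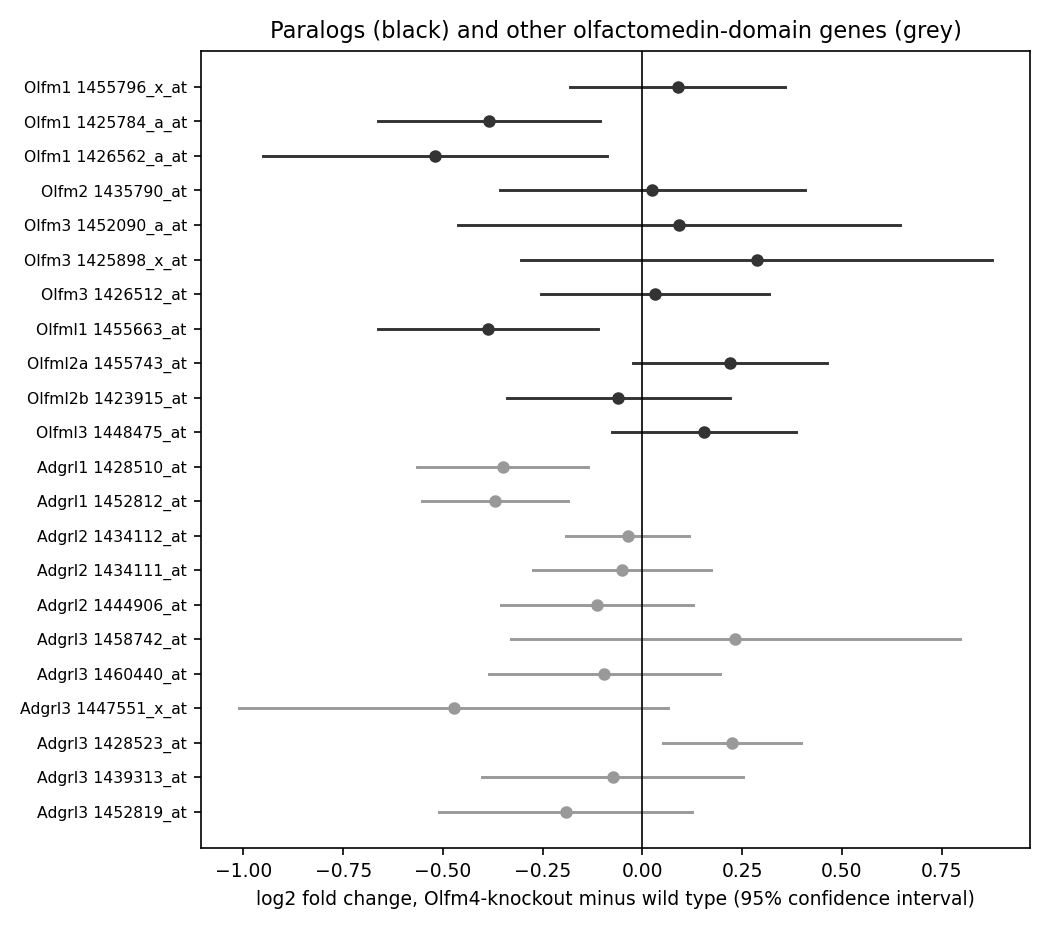
Log2 fold change, *Olfm4*-knockout minus wild type (x axis), of the 11 paralog probe sets (black) and 11 latrophilin probe sets (grey), where each point is limma's estimate and its line the 95% confidence interval. The intervals of 2 *Olfm1* probe sets, *Olfml1* and both *Adgrl1* probe sets lie below 0 and that of 1 *Adgrl3* probe set above it, and none of these was called over all probe sets.

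The partners and regulators of the family were read from lists of genes, with each gene represented by its brightest probe set. Over all 18193 genes taken in this way, 0.17% were called, 6.27% were higher and 8.49% lower at an unadjusted p under 0.05, and 53.8% had a lower mean in knockout prostate. Of 7 measured genes for proteins reported to bind OLFM4, out of 8 listed, 0 were called. At an unadjusted p under 0.05, *Cdh1*, which encodes the cell adhesion protein E-cadherin, and *Shh* were higher and *Ctsc*, the gene of the protease-activating enzyme cathepsin C, was lower. *Shh*, the gene of the hedgehog ligand, was higher by 0.61 on the log2 scale (SE 0.15, adjusted p = 0.221 from limma), and *Cdh1* by 0.18 (SE 0.07, adjusted p = 0.373). The difference at *Ctsc* was -0.27 on the log2 scale (SE 0.09, adjusted p = 0.299 from limma). Of 13 measured partners and targets of the paralogs, out of 14 listed, 0 were called, and before adjustment 2 had p under 0.05, both higher, a share to be read against the 6.27% of all genes. *Timp3*, an inhibitor of matrix metalloproteases, was higher by 0.46 on the log2 scale (SE 0.08, adjusted p = 0.152 from limma). *Rtn4r*, the gene of the Nogo receptor that OLFM1 binds, was higher by 0.20 (standard error 0.06, adjusted p = 0.291 from limma). *Bmp4*, the gene of the ligand that OLFML3 binds, had a log2 fold change of -0.08 (adjusted p = 0.718).

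Crypt stem cell genes accompany *Olfm4* in intestine. All 9 measured of 10 listed had a mean over the 8 arrays above 4.56, as did 71.0% of all probe sets. None was called, 1 was lower at an unadjusted p under 0.05 (*Sox9*) and 8 of 9 had a lower mean, as did 53.8% of all genes, with a median log2 fold change of -0.02. *Lgr5*, the receptor gene that marks these cells, differed by -0.0013 on the log2 scale (SE 0.24, adjusted p = 0.999 from limma). *Sox9* differed by -0.67 (SE 0.22, adjusted p = 0.303 from limma). It read 8.55, 9.36, 9.46 and 9.64 in knockout arrays 1 to 4 and 9.65 to 10.08 in wild-type arrays. On the 2 arrays rich in seminal vesicle transcripts it read 8.55 in knockout, the lowest of all, and 10.08 in wild type, the highest. Of 9 measured regulators of *Olfm4*, out of 10 listed, 0 passed even an unadjusted p under 0.05, and the median log2 fold change was 0.02.

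Neutrophils, blood cells that express *Olfm4*, could be present in whole prostate. The mean over 6 measured neutrophil markers was 4.60 to 5.42 in knockout and 4.56 to 4.64 in wild-type arrays. On average 3 of the 6 were above 4.56, as were 71.0% of all probe sets. None was called, 4 of 6 had a higher mean in knockout prostate, and 1 was higher at an unadjusted p under 0.05. That one, *S100a9*, encodes a calcium-binding protein of neutrophils and read 7.28, 5.50, 5.23 and 6.97 in knockout arrays and 4.82, 5.07, 5.30 and 4.92 in wild-type arrays. Knockout arrays 1 and 4 were high and the other 2 were near the wild-type range. The log2 fold change was 1.22, with an SE of 0.46, an unadjusted p of 0.0318 and an adjusted p of 0.346 in limma. Its partner *S100a8* differed by 0.68 (SE 0.47, adjusted p = 0.597 from limma). *Elane* and *Camp*, 2 defining granule genes, read 3.49 to 3.74 and 3.85 to 4.04 in knockout arrays and 3.42 to 3.74 and 3.83 to 4.23 in wild-type arrays. *Ngp*, another marker of the list, was above 4.56 on every array, at 5.48 to 5.85 in knockout and 5.73 to 5.82 in wild-type arrays. The part of these cells in the values of the family was not tested.

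The genes whose pattern over the 8 arrays was most like that of each member were found by Pearson's r among 18193 genes, as a description. For *Olfm4* they were *Adamdec1*, *Slc25a30* and *Adam28* (r of 0.994, 0.993 and 0.991). All of these were called lower in knockout prostate, so that r mirrors the split between genotypes. Their log2 fold changes were -3.65, -1.89 and -2.94 (adjusted p = 1.22e-04, 6.61e-04 and 0.00116 from limma). Whether their falls follow from the loss of *Olfm4* or from other differences between the genotypes was not tested. For *Olfml1* the nearest was *Aif1l* (r = 0.979, Spearman's rho = 1), and r was 0.929 without the 2 arrays farthest from the median. *Zbtb22* and *Crct1* followed with r of 0.967 and 0.965. For *Olfml3* the nearest was *Rasgrp3* (r = 0.948, rho = 0.929, and r = 0.857 without 2 arrays), followed by *4930558J18Rik* and *Arhgap17*. For *Olfml2a* it was *Fancb* (r = 0.970, rho = 0.929, and r = 0.819 without 2 arrays), followed by *Kcnj5* and *1700019M22Rik*, and for *Olfm1* at its brightest probe set *Ccr10* (r = 0.955, rho = 0.905, and r = 0.972 without 2 arrays), followed by *Gm17762* and *1110032F04Rik*. These genes were picked as the highest r of many over only 8 arrays. Of those named, *Ccr10*, *1110032F04Rik*, *4930558J18Rik* and *1700019M22Rik* averaged 4.30, 4.29, 4.11 and 4.47, below the background threshold of 4.56.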

How the data were processed

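RNA of whole prostate was hybridised to 1 genome-wide array per mouse, for 4 *Olfm4*-knockout mice and 4 of wild type. The methods give 5 mice per genotype, and the labels used here 4. The authors deposited log2 values made with the RMA algorithm (version not given in the sources used here), which corrects background, brings all arrays to one distribution by quantiles and reduces a probe set's probes to 1 value, with no detection calls and no counts, so the number of arrays sets the precision. Because quantile normalization gives the arrays one distribution, a shift shared by most genes would not show. The labels name Trizol for RNA extraction and the methods a column kit.

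Probe sets were named through the platform annotation, where 34945 had 1 symbol, and control probe sets (64) were left out. The test was limma 3.58.1 (lmFit and eBayes, 2-sided, run in R 4.3.3) for genotype, with array day as a term and Benjamini-Hochberg adjustment over 45037 probe sets. Nothing shows whether the mice shared litters, and p-values measure the spread between these mice. The fit was tested on 200 changed probe sets among 45037 simulated ones. Of probe sets given a log2 change of 2 it recovered 94%, and at a log2 change of 4 it recovered 96%, with 1.99% false calls. ANOVA, the test that the methods name, was run as an alternative with genotype as its only term, beside other blocks, variance models, array weights, scalings, filters on dim probe sets, each day alone and leaving out arrays. Members and lists were chosen with earlier results of these data known. Named genes are all members, the latrophilins, up to 3 genes with the smallest p of each list, and the 3 genes with the highest r to *Olfm4* and to each member whose brightest probe set averages at least 6. *Bmp4*, *Lgr5*, *Elane*, *Camp*, *Ngp*, *S100a8* and *S100a9* were named for their role or values after the values were seen. Promoter sequences are from RefSeq (GRCm38.p6), where all 9 members matched by symbol.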

Additional observations from a re-analysis of the deposited data

Results flagged for a closer look

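At the *Olfm3* probe set 1452090_a_at, 1 array stood apart from the other 3 of its group in both genotypes. Knockout array 1 read 3.75, and its gap to the next array was 0.853 of the range of the knockout arrays. Wild-type array 1 read 3.37, with a gap of 0.871 of the range of the wild-type arrays. Both exceeded Dixon's 95% critical value for 4 arrays, which chance passes in about 1 of 20 groups, and 24 groups were examined. Both values lay below the 95th percentile of the background set, and both arrays were those rich in seminal vesicle transcripts. The cause was not tested.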

How the results depend on the processing

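*Olfm4* was called lower under every alternative in which it was tested, with log2 fold changes from -7.48 without the 2 arrays rich in seminal vesicle transcripts to -7.26 without wild-type array 3. A filter on a mean log2 value of at least 7 removed it, which left 0 olfactomedin probe sets called in place of 1. No paralog probe set was called in either direction under any alternative in which it was tested. The number of calls over all probe sets, 50, was 20 with the replicate block and 24 with the methods' ANOVA (5615 at an unadjusted p under 0.05). It was 4 on array day 1 alone and 4 on array day 2 alone, and 17 to 43 when 1 array was left out, with 17 and 19 without wild-type arrays 2 and 3 and 24, 26 and 20 without knockout arrays 2, 3 and 4. *Olfm1* at 1425784_a_at and 1426562_a_at and *Olfml1* kept a lower mean, and *Olfml2a* and *Olfml3* a higher one, under every alternative run. With ANOVA 1 of the 3 paralog probe sets lower at an unadjusted p under 0.05, 1425784_a_at of *Olfm1*, was still below it. At 1426562_a_at the log2 fold change ranged from -0.68 to -0.41 when 1 array was left out.

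Signs turned at some probe sets, among them 1425898_x_at of *Olfm3*, which had the highest difference of all paralog probe sets. *Olfm1* at 1455796_x_at had -0.058 on array day 2 alone and -0.27 as the mean of the gene's probe sets. *Olfm2* had -0.028 with array weights, -0.022 on array day 1 alone, -0.066 without the 2 arrays rich in seminal vesicle transcripts, and -0.10 to 0.13 when 1 array was left out. *Olfm3* at 1452090_a_at had -0.036 with array weights, -0.24 on array day 1 alone and -0.15 to 0.27 when 1 array was left out. *Olfm3* at 1425898_x_at had -0.060 on array day 1 alone, and at 1426512_at -0.061 to 0.13 when 1 array was left out. *Olfml2b* had 0.0066 without the 2 arrays rich in seminal vesicle transcripts and -0.16 to 0.038 when 1 array was left out. The cause was not tested. With the 90th percentile as threshold 5 paralogs were above background, *Olfml2b* included, and 4 with the 99th percentile or with fixed values of 5 or 6.

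Replicate numbers are shared by the genotypes but are only numbers. Deviations of same-numbered arrays correlated at -0.0236 to 0.365, over 0.1 in 2 of 4 pairs, and not every array correlated best with its own number. With the replicate block, *Olfm4* had a log2 fold change of -7.37 and was called.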
